A study of Mus musculus with 8 samples.

Results

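The stromal genes described here are markers of 3 cell types of the colon wall that support the epithelium: fibroblasts, smooth muscle and endothelium. The list held 39 genes, and a gene was taken where a probe set of the array was annotated with exactly 1 symbol and that symbol was on the list. By this rule 38 of the 39 were measured, among 19938 genes in all: 12 of 13 fibroblast, 16 of 16 smooth muscle and 10 of 10 endothelial genes. The remaining fibroblast gene was not analysed here. Each of the 38 genes had 1 probe set, so no choice between probe sets was needed.

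RNA was measured in 8 mouse colonic tumors, 1 Affymetrix array each, and no sample was of normal colon. In 3 tumors the genotype label was K-rasG12Dint and the tumor, in the distal colon, was induced by azoxymethane (AOM), a colon carcinogen. In the next 2, also AOM-induced and distal, it was LSL-K-rasG12D/+, where LSL is a lox-stop-lox cassette, which blocks expression of the allele unless a recombinase cuts it out, and the titles of these samples call them wt. The last 3 were serrated tumors of the proximal colon labelled K-rasG12Dint/Ink4a/Arf-/-, and their titles do not name AOM. All 3 labels thus name a K-rasG12D allele. The labels name no recombinase or promoter, and neither the strain nor the age of the mice was given in the sources used here. Tumor type, colon segment, AOM and the Ink4a/Arf label went together, so that their parts in any difference between the serrated and the AOM groups cannot be told apart. The groups are called K-rasG12D AOM, LSL AOM and serrated below.

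Fibroblasts of the colon lie beneath the crypts and between them, secrete the collagens and proteoglycans of the matrix, and send signals to the epithelial stem cells. Smooth muscle forms the muscularis mucosae just under the mucosa and the thick outer muscle layers, and contracts through actin, smooth muscle myosin and their regulators, many of which are switched on by serum response factor and its partner myocardin. Endothelium lines the vessels, where the receptors for VEGF and angiopoietin ligands steer growth and stability.

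The values were log2 signals, so that 1 unit is a doubling, and the array medians over all genes lay between 4.17 and 4.31. Serrated replicate 1 stood apart, with a narrower spread of signals (standard deviation, SD, 1.77, where the other 7 arrays had 2.00 to 2.13), and 27.9% of all genes were highest and 26% lowest on that array. The serrated group was the most variable, with a median SD over all genes of 0.32 against 0.17 in the K-rasG12D AOM and 0.16 in the LSL AOM group. Serrated tumors were compared with all AOM tumors (the average of both AOM group means) and with each AOM group, in 1 limma fit over all genes with Benjamini-Hochberg adjusted p-values. A difference passed where the adjusted p was under 0.05. These comparisons share control arrays, and the first rests on all 8 arrays. For all genes, 9.38% passed between serrated and AOM tumors, 722 higher (3.62%) and 1149 lower (5.76%) in the serrated group, or 768 and 801 after each array was centred on its median.

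Few stromal genes passed between serrated and AOM tumors, and the medians of the 3 cell types lay on different sides of 0. Of the 38 genes, 2 were lower and 0 higher in the serrated group by limma's adjusted p, which is 5.26% against the 9.38% of all genes (5.76% lower, 3.62% higher). These were Sparc, a matrix glycoprotein of fibroblasts, and Cald1, which encodes the actin-binding caldesmon. At an unadjusted p under 0.05 the count was 12 of 38, or 31.6% beside 24.7% of all genes. The median log2 difference of serrated from AOM tumors was -0.64 over fibroblast genes, 0.41 over smooth muscle genes and -0.15 over endothelial genes, beside 0.04 over all genes. Of the fibroblast genes 8 of 12 had a difference below 0, of the smooth muscle genes 5 of 16 and of the endothelial genes 7 of 10. In whole tumor tissue, fewer cells of a type and less RNA per cell cannot be told apart.

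The mean level of the 12 fibroblast genes was 5.71, 6.13 and 6.25 on the K-rasG12D AOM arrays, 6.19 and 5.61 on the LSL AOM arrays and 5.42, 5.08 and 5.84 on the serrated arrays. Serrated replicates 1 and 2 were the lowest of the 8 arrays, and serrated replicate 3 lay within the AOM range. After quantile normalization only serrated replicate 2 lay below that range, and serrated replicate 1 and LSL AOM replicate 2 were level at 5.62. The 16 smooth muscle genes averaged 5.24, 5.08 and 5.59 in K-rasG12D AOM, 5.71 and 5.10 in LSL AOM and 5.90, 5.37 and 5.29 in serrated tumors. Here serrated replicate 1 was the highest array and the other 2 serrated arrays lay within the AOM range. For the 10 endothelial genes the means were 4.92, 5.24 and 5.11 in K-rasG12D AOM, 5.0 and 4.51 in LSL AOM and 4.59, 4.51 and 5.36 in serrated tumors. Serrated replicate 3 was the highest array for endothelium, while serrated replicate 2 and LSL AOM replicate 2 were lowest. These list means are descriptions and carry no test.

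**Figure D1:**
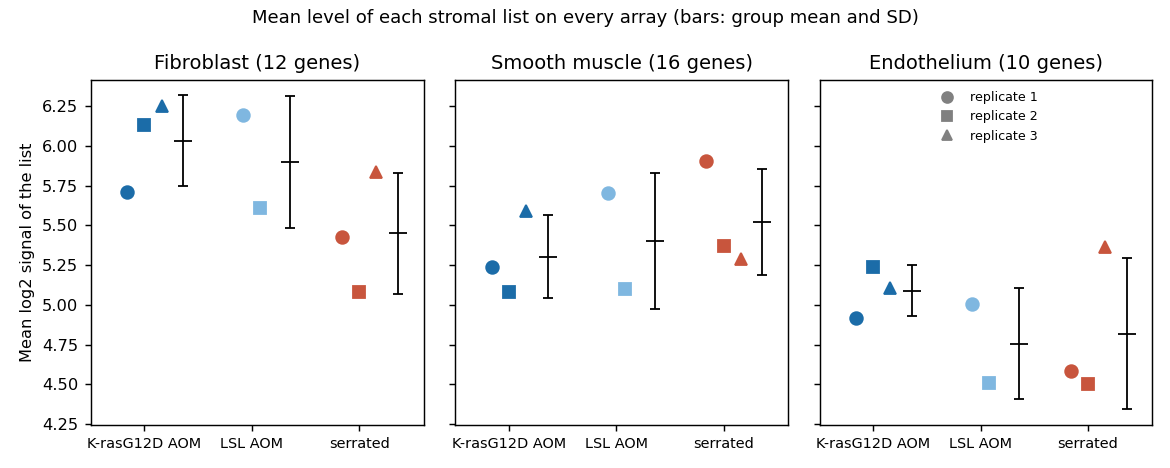
Mean log2 signal of the fibroblast, smooth muscle and endothelial genes on each of the 8 arrays (points; the marker shape gives the replicate number, which pairs nothing across groups), with the group mean and SD to the right of each group. The highest smooth muscle point is serrated replicate 1 at 5.90, the highest endothelial point is serrated replicate 3 at 5.36, and the lowest fibroblast point is serrated replicate 2 at 5.08.

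By group, the fibroblast mean was 6.03 ± 0.29 (SD, n = 3) in K-rasG12D AOM, 5.90 ± 0.42 (n = 2) in LSL AOM and 5.45 ± 0.38 (n = 3) in serrated tumors. The smooth muscle mean was 5.30 ± 0.26, 5.4 ± 0.43 and 5.52 ± 0.33 in the same order, and the endothelial mean 5.09 ± 0.16, 4.76 ± 0.35 and 4.82 ± 0.47. The 3 smooth muscle means lay within 1 SD of each other. The balance of 2 lists within an array removes a shift that the array gives equally to both. It does not remove a change of spread, as on serrated replicate 1. After quantile normalization the smooth muscle mean there was 6.26 and the fibroblast mean 5.62. The balances that follow are from the values as deposited. Smooth muscle minus fibroblast was -0.47, -1.05 and -0.66 on the K-rasG12D AOM arrays, -0.49 and -0.51 on the LSL AOM arrays and 0.48, 0.29 and -0.55 on the serrated arrays. Serrated replicates 1 and 2 thus stood above all AOM arrays in this balance, and serrated replicate 3 lay within their range.

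Fibroblast genes were described by what their products do, beginning with the matrix proteins. Sparc, which binds collagen and shapes its assembly, had log2 signals of 8.97, 9.56 and 9.23 in K-rasG12D AOM, 9.40 and 8.46 in LSL AOM and 7.83, 7.67 and 8.44 in serrated tumors. No serrated array reached the lowest AOM array, LSL AOM replicate 2, although serrated replicate 3 lay just below it. Sparc was 2.16-fold lower in serrated than in AOM tumors, with a log2 difference of -1.11 ± 0.27 (standard error, SE; limma adjusted p = 0.0370). Against K-rasG12D AOM tumors alone it fell by 1.27 ± 0.30 (adjusted p = 0.0413), and against LSL AOM tumors alone the difference was -0.95 ± 0.34 and did not pass (adjusted p = 0.151). The call against all AOM tumors was lost without any one of 6 arrays, K-rasG12D AOM replicates 1, 2 and 3, LSL AOM replicate 1 and serrated replicates 1 and 2, with adjusted p between 0.0586 and 0.158. It held without LSL AOM replicate 2 or serrated replicate 3. The call against K-rasG12D AOM tumors was lost without any one array of that group or without serrated replicate 1 or 2 (adjusted p from 0.0733 to 0.168). With arrays centred on their median, Sparc did not pass in either comparison (adjusted p = 0.0571 and 0.0666).

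The small proteoglycans decorin and biglycan bind collagen fibrils. Dcn, for decorin, measured 9.85, 10.32 and 10.11 in K-rasG12D AOM, 9.43 and 8.68 in LSL AOM and 8.27, 6.68 and 9.75 in serrated tumors. The serrated arrays spanned 3.07 log2 units and overlapped those of LSL AOM but not those of K-rasG12D AOM. The difference from AOM tumors was -1.34 ± 0.57 and did not pass (adjusted p = 0.188). Bgn, for biglycan, measured 7.47, 8.29 and 8.59 in K-rasG12D AOM, 8.68 and 7.78 in LSL AOM and 6.87, 6.43 and 7.92 in serrated tumors (difference -1.10 ± 0.39, adjusted p = 0.119). In both genes serrated replicate 2 was the lowest of the 8 arrays and serrated replicate 3 lay within the AOM range. Postn, for the matricellular protein periostin, measured 6.21, 6.84 and 6.56 in K-rasG12D AOM, 6.81 and 5.62 in LSL AOM and 4.0, 4.87 and 6.75 in serrated tumors. Serrated replicates 1 and 2 were the lowest of the 8 arrays, while serrated replicate 3 lay near the highest AOM arrays, and the difference of -1.17 ± 0.56 did not pass (adjusted p = 0.235).

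Pdgfra and Pdgfrb encode the receptors for platelet-derived growth factors, the first typical of fibroblasts and the second shared with pericytes. Pdgfra measured 7.80, 7.74 and 7.81 in K-rasG12D AOM, 8.24 and 6.93 in LSL AOM and 6.80, 6.55 and 6.94 in serrated tumors. The serrated arrays were all below the 3 K-rasG12D AOM arrays, which lay close together, and just reached LSL AOM replicate 2. The difference from AOM tumors was -0.92 ± 0.27 and did not pass (adjusted p = 0.0677). Pdgfrb measured 6.50, 7.0 and 7.06 in K-rasG12D AOM, 6.98 and 6.06 in LSL AOM and 5.31, 5.51 and 6.28 in serrated tumors (difference -0.99 ± 0.29, adjusted p = 0.0693). Its serrated arrays were likewise all below those of K-rasG12D AOM and overlapped those of LSL AOM.

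The other 6 fibroblast genes, which encode the proteoglycan lumican (Lum), the surface protein Thy1, fibroblast activation protein (Fap), the microfibril protein Mfap5, elastin (Eln) and fibulin 1 (Fbln1), had log2 differences between -0.35 (Fbln1) and 0.32 (Fap). None of these 6 reached an unadjusted p under 0.05 between serrated and AOM tumors. Lum measured 3.14, 3.51 and 3.23 in K-rasG12D AOM, 5.07 and 3.39 in LSL AOM and 3.92, 3.21 and 4.89 in serrated tumors, so that LSL AOM replicate 1 and serrated replicate 3 stood above the other 6 arrays. The list thus held 6 genes with a difference of -0.92 or lower, and 6 between -0.35 and 0.32. The split followed signal level. The first 6 had the highest mean signals of the list (Postn 5.96 and above), and the other 6 the lowest (Fbln1 5.77 and below). Mfap5 (3.15) and Fap (2.06) lay among the dimmest 40% of genes, so that a difference in them may be understated.

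**Figure D2:**
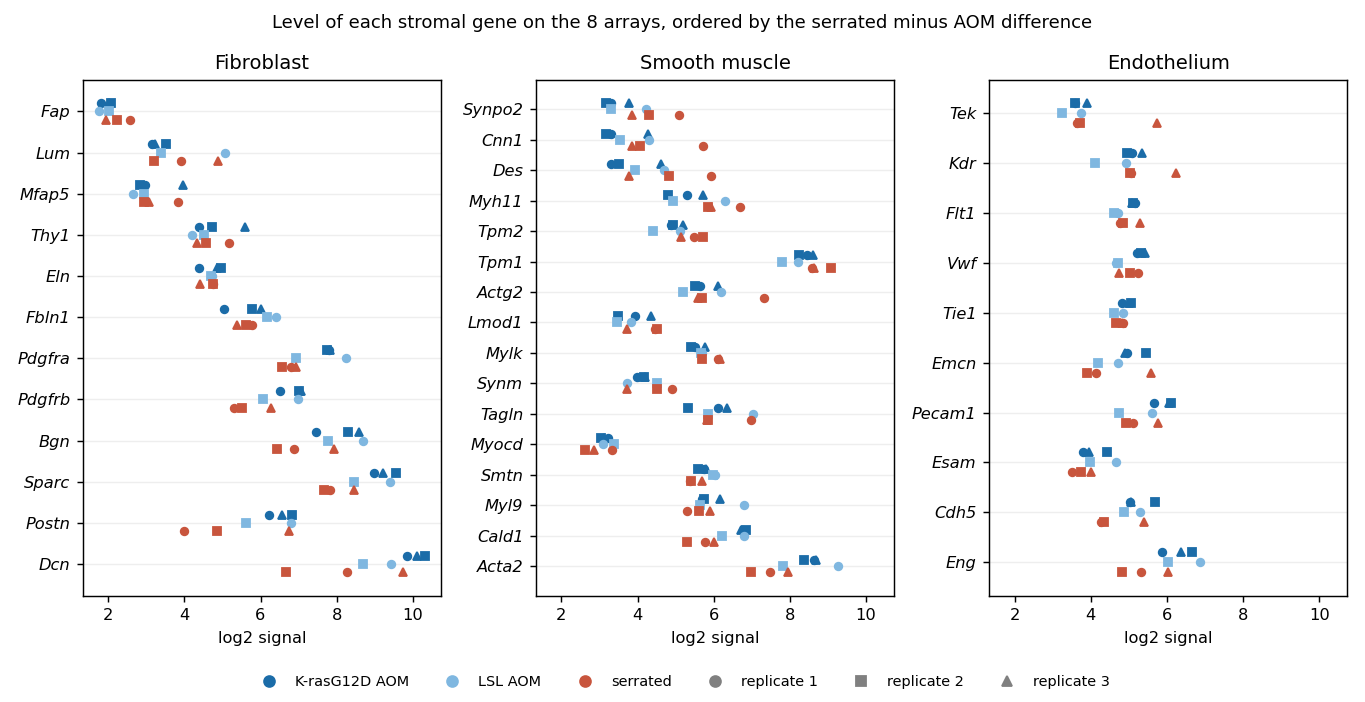
Log2 signal of each of the 38 stromal genes on the 8 arrays, with 1 point per array (colour, tumor group; marker shape, replicate number) and the genes of each list ordered by their difference between serrated and AOM tumors. The serrated points of Sparc and Cald1 lie below all AOM points, and single serrated arrays stand far to the right for Cnn1, Des and Actg2 (replicate 1) and for Tek and Kdr (replicate 3). Signals of different genes come from different probes and are not compared.

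The count of stromal genes that passed depended on single arrays. Without serrated replicate 3, 11 of the 38 stromal genes passed between serrated and AOM tumors, and 19.4% of all genes in place of 9.38%. The 11 were Dcn, Bgn, Postn, Pdgfrb, Sparc, Acta2, Cald1, Cdh5, Emcn and Eng lower and Synpo2 higher. Dcn then fell by 2.10 ± 0.40 (adjusted p = 0.0104) and Postn by 1.94 ± 0.36 (adjusted p = 0.00916). Without LSL AOM replicate 2 the count was 4, with Pdgfra and Acta2 beside Sparc and Cald1. It was 1 without K-rasG12D AOM replicate 3 or serrated replicate 1, and 0 without K-rasG12D AOM replicate 1 or 2, LSL AOM replicate 1 or serrated replicate 2.

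Other matrix genes were read from a list of 23, all measured. Of these 6 were lower in serrated than in AOM tumors and 0 higher, or 26.1% beside 9.38% of all genes (5.76% lower). The median difference was -0.48. Fn1, for fibronectin, measured 9.20, 9.71 and 10.26 in K-rasG12D AOM, 9.86 and 8.98 in LSL AOM and 7.42, 7.49 and 8.06 in serrated tumors, a fall by 1.92 ± 0.30 (adjusted p = 0.00631). Vim, for the intermediate filament vimentin of mesenchymal cells, fell by 1.75 ± 0.27 (adjusted p = 0.00561). Fn1 and Vim passed without any one of the 8 arrays, and in neither gene did the serrated arrays overlap the AOM arrays. The fibrillar collagens Col1a1 (-1.47 ± 0.29, adjusted p = 0.0161), Col3a1 (-1.42), Col1a2 (-1.41) and Col5a2 (-1.28) also fell, the last 2 named here to complete the 6. The count of lower matrix genes was 3 without K-rasG12D AOM replicate 2 or LSL AOM replicate 1 (Fn1, Vim and Col1a1), 4 without K-rasG12D AOM replicate 3 or serrated replicate 1, and 2 without serrated replicate 2 (Fn1 and Vim).

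Fibroblasts below the crypts secrete BMP and WNT signals and their inhibitors. Of 18 measured genes for such signals and their regulators, 3 were lower in serrated than in AOM tumors and 0 higher. That is 16.7% beside 9.38% of all genes (5.76% lower), and the median difference was -0.56. Bmp7, for a bone morphogenetic protein, measured 6.46, 7.40 and 6.73 in K-rasG12D AOM, 6.84 and 6.38 in LSL AOM and 4.84, 4.67 and 5.04 in serrated tumors. It fell by 1.89 ± 0.23 (adjusted p = 0.00244), and Dkk3, a relative of the WNT inhibitors, by 1.69 ± 0.25 (adjusted p = 0.00483). Both genes passed without any one array. Foxl1, a transcription factor of the fibroblasts next to the crypts, fell by 0.98 ± 0.19 (adjusted p = 0.0145) but did not pass without LSL AOM replicate 1 or 2 or serrated replicate 2 (adjusted p from 0.0540 to 0.0542), nor with the AOM arrays pooled as 1 group. Without one of these 3 arrays the count was 2, and without serrated replicate 3 it was 7.

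Smooth muscle genes did not share a direction. The promoters of 3 of them are shown. Myl9 holds a CArG box, the sequence to which serum response factor binds, Acta2 holds CArG-like sequences and Cnn1 holds neither in this window. They were also picked because Acta2 and Cnn1 had differences of opposite sign between the tumors, neither of which passed. The sequences are from RefSeq (GRCm38.p6), the 200 bases before the start site on the strand of the gene, at chr19:34255374-34255573 (minus strand) for Acta2, chr2:156775264-156775463 (plus strand) for Myl9 and chr9:22099053-22099252 (plus strand) for Cnn1. Capitals mark a CArG box or a CArG-like sequence, which has 1 letter G or C in the A/T core.
Acta2: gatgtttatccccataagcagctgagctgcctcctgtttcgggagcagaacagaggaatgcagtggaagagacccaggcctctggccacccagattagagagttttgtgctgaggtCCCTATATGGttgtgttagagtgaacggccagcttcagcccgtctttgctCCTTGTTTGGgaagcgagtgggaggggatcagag
Myl9: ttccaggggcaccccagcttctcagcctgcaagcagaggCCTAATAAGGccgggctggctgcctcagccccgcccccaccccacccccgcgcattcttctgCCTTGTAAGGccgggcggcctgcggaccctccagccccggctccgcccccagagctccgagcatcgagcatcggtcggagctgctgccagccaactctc
Cnn1: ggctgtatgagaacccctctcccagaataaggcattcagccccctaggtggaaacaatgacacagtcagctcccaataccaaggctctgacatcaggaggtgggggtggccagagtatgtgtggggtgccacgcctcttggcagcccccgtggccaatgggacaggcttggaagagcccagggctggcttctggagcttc

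The search covered both strands of windows that run from before to just after each start site, 300 bases long. RefSeq windows were matched for 12 of the 16 smooth muscle genes. Of 13 windows of these genes, 1 (Myl9, 7.69%) held a CArG box, against 1.63% of all 32851 windows, and 3 (Acta2, Myl9 and Synm, 23.1%) held a CArG box or CArG-like sequence, against 9.98%. In the same search 3 of 6 endothelial windows (Kdr, Tek and Eng) and 0 of 7 fibroblast windows held one. Of the 3 smooth muscle genes with a match, Acta2 and Myl9 had differences below 0 between serrated and AOM tumors and Synm above 0. Among those with a window but no match, Cald1 and Smtn were below 0 and the rest above 0. A match is a stretch of letters and was not tested as a binding site.

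Acta2, which encodes smooth muscle alpha-actin and is also made by myofibroblasts and pericytes, measured 8.63, 8.38 and 8.69 in K-rasG12D AOM, 9.26 and 7.82 in LSL AOM and 7.48, 6.97 and 7.94 in serrated tumors. All serrated arrays were below those of K-rasG12D AOM, and only serrated replicate 3 reached the LSL AOM range. The difference from AOM tumors was -1.09 ± 0.33 and did not pass (adjusted p = 0.0784). Cald1 measured 6.76, 6.85 and 6.72 in K-rasG12D AOM, 6.79 and 6.23 in LSL AOM and 5.78, 5.30 and 6.01 in serrated tumors. No serrated array overlapped an AOM array. Caldesmon, which cells other than muscle also make, was 1.92-fold lower at the RNA level, a fall by 0.94 ± 0.20 (adjusted p = 0.0244). Against K-rasG12D AOM tumors it fell by 1.08 ± 0.23 (adjusted p = 0.0281), and against LSL AOM tumors the difference was -0.81 ± 0.25 and did not pass (adjusted p = 0.107). The call against all AOM tumors was lost without K-rasG12D AOM replicate 1 or 2, LSL AOM replicate 1 or serrated replicate 2 (adjusted p from 0.0591 to 0.104). The call against K-rasG12D AOM tumors was lost without any one array of that group or without serrated replicate 2 (adjusted p from 0.0735 to 0.116). Smtn (smoothelin, -0.38), Myl9 (a myosin regulatory light chain, -0.44) and Myocd (myocardin, -0.25) were the other smooth muscle genes below 0, and none of them passed.

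Of the 16 smooth muscle genes 11 had differences above 0, and none of these passed. Cnn1, for calponin, measured 3.31, 3.18 and 4.28 in K-rasG12D AOM, 4.29 and 3.53 in LSL AOM and 5.71, 4.06 and 3.85 in serrated tumors. Des, for the intermediate filament desmin, measured 3.31, 3.51 and 4.61 in K-rasG12D AOM, 4.70 and 3.93 in LSL AOM and 5.94, 4.82 and 3.77 in serrated tumors. In both genes serrated replicate 1 was the highest array by more than 1 log2 unit, and serrated replicate 3 lay within the AOM range. Their differences from AOM tumors were 0.79 ± 0.45 (adjusted p = 0.316) and 0.78 ± 0.49 (adjusted p = 0.36) and did not pass. Without serrated replicate 1 they were 0.21 and 0.23.

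Myh11, the smooth muscle myosin heavy chain, measured 5.30, 4.80 and 5.72 in K-rasG12D AOM, 6.31 and 4.93 in LSL AOM and 6.68, 5.84 and 5.93 in serrated tumors. Synpo2, for an actin-binding protein of muscle, measured 3.30, 3.16 and 3.77 in K-rasG12D AOM, 4.23 and 3.30 in LSL AOM and 5.09, 4.3 and 3.86 in serrated tumors. These were the only 2 stromal genes with all serrated arrays above all K-rasG12D AOM arrays, and both overlapped LSL AOM. Synpo2 had the highest difference of the 38 genes from AOM tumors, 0.83 ± 0.32, which did not pass (adjusted p = 0.148). That of Myh11 was 0.70 ± 0.35 (adjusted p = 0.256). Actg2, the gamma-actin of visceral smooth muscle, measured 5.64, 5.51 and 6.12 in K-rasG12D AOM, 6.19 and 5.20 in LSL AOM and 7.31, 5.68 and 5.59 in serrated tumors. Serrated replicate 1 alone stood above the AOM range, and the difference of 0.47 ± 0.42 was -0.09 without that array.

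Tagln, for transgelin, measured 6.11, 5.31 and 6.35 in K-rasG12D AOM, 7.03 and 5.85 in LSL AOM and 6.98, 5.85 and 5.81 in serrated tumors, a difference of 0.03 ± 0.39. LSL AOM replicate 1 and serrated replicate 1 were the 2 high arrays. The tropomyosin gene Tpm1 measured 8.46, 8.23 and 8.60 in K-rasG12D AOM, 8.22 and 7.78 in LSL AOM and 8.57, 9.08 and 8.62 in serrated tumors. Its serrated arrays all lay above those of LSL AOM and overlapped those of K-rasG12D AOM, and the difference of 0.54 ± 0.19 did not pass (adjusted p = 0.108). Tpm2 (0.57), Lmod1 (leiomodin, 0.45), Mylk (myosin light chain kinase, 0.37) and Synm (synemin, 0.26) also had differences above 0 that did not pass. Transcripts of Acta2, Actg2 and other actins are close in sequence, as are those of the tropomyosins, and probes may in part read each other's targets.

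**Figure D3:**
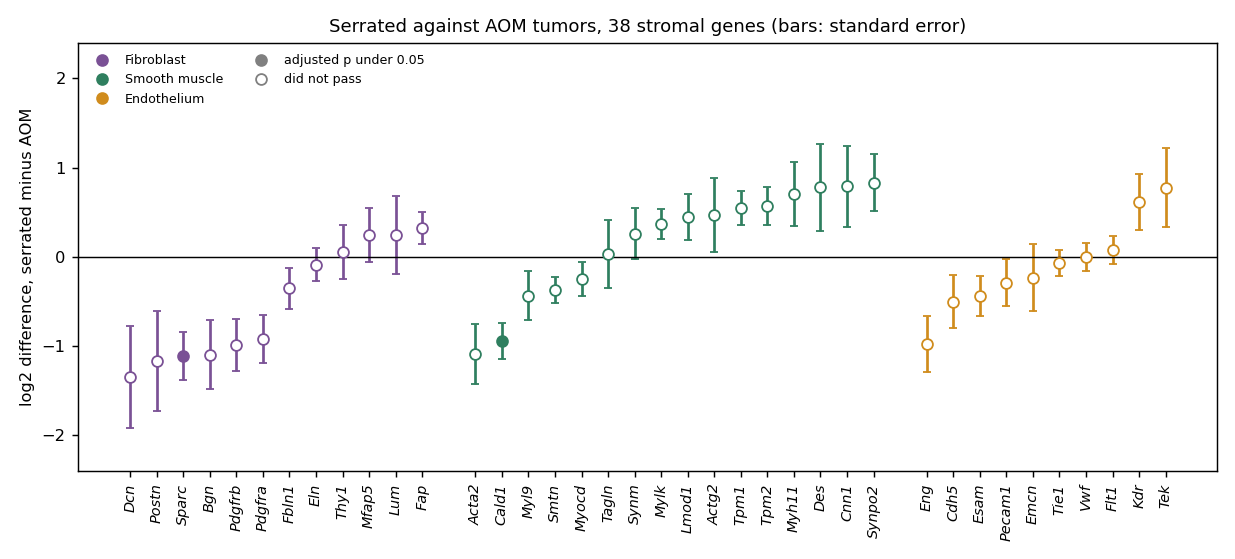
Log2 difference of serrated from AOM tumors for the 38 stromal genes (points; bars are the SE of the limma fit), by list and in order of size, with filled points for genes that passed at an adjusted p under 0.05. Only Sparc and Cald1 are filled, 11 of the 16 smooth muscle points lie above 0, and 8 of the 12 fibroblast points lie below 0.

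Against K-rasG12D AOM tumors alone, 2 of 38 stromal genes passed, again Sparc and Cald1, both lower, or 5.26% against 6.45% of all genes (2.46% higher, 3.99% lower). At an unadjusted p under 0.05 there were 10 of 38, or 26.3% beside 21.8% of all genes. Against LSL AOM tumors alone, 0 of 38 passed by limma against 5.71% of all genes (2.31% higher, 3.4% lower), and 11 (28.9%) had an unadjusted p under 0.05, beside 20.3% of all genes. Without serrated replicate 3 these counts of passing stromal genes were 11 and 5, and the shares of all genes that passed 16% and 12.7%. Without LSL AOM replicate 2, 1 gene, Pdgfra, passed against LSL AOM tumors. Against K-rasG12D AOM tumors the count was 0 without any one array of that group or serrated replicate 2, 1 without serrated replicate 1 and 3 without either LSL AOM array. Against K-rasG12D AOM tumors the median difference was -0.61 over fibroblast, 0.32 over smooth muscle and -0.31 over endothelial genes. Against LSL AOM tumors it was -0.75, 0.41 and 0.09 in the same order.

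Serrated and AOM arrays did not overlap in 2 of 38 stromal genes, Sparc and Cald1, which is 5.26% beside 16.2% of all genes (7.24% higher, 8.93% lower in serrated tumors). Serrated and K-rasG12D AOM arrays did not overlap in 8 genes (21.1%, against 25.8% of all genes, 12% higher and 13.9% lower), with Dcn, Pdgfra, Pdgfrb, Sparc, Acta2 and Cald1 lower and Myh11 and Synpo2 higher in serrated tumors. Serrated and LSL AOM arrays did not overlap in 10 genes (26.3%, against 33% of all genes, 15.6% higher and 17.4% lower). Of these, Tpm1, Tpm2, Kdr, Flt1 and Vwf were higher and Fbln1, Sparc, Smtn, Cald1 and Eng lower in serrated tumors. None of these shares lay above that of all genes.

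Regulators and ion channels of smooth muscle made up another list, with 21 genes measured. Of these 2 were lower in serrated than in AOM tumors and 0 higher, or 9.52% beside 9.38% of all genes (5.76% lower). The median difference was 0.03. Flna, for the actin cross-linker filamin A, measured 8.24, 8.29 and 8.35 in K-rasG12D AOM, 8.69 and 8.05 in LSL AOM and 6.47, 6.42 and 7.02 in serrated tumors. It fell by 1.69 ± 0.21 (adjusted p = 0.00216), and Pdlim7, for a LIM domain protein of actin filaments, fell by 1.19 ± 0.19 (adjusted p = 0.00637). Both passed without any one array, and their serrated arrays lay below all AOM arrays. Both proteins are also made in many cells other than muscle.

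No endothelial gene passed between serrated and AOM tumors, 0 of 10 by limma beside 9.38% of all genes. At an unadjusted p under 0.05 there was 1 of 10 (10%), beside 24.7% of all genes. That gene was Eng, for endoglin, a co-receptor for TGF-beta family ligands, with 5.88, 6.67 and 6.38 in K-rasG12D AOM, 6.86 and 6.04 in LSL AOM and 5.33, 4.83 and 6.03 in serrated tumors. Its serrated arrays were below both LSL AOM arrays, only just so for serrated replicate 3, and overlapped those of K-rasG12D AOM. The difference from AOM tumors was -0.98 ± 0.32 (adjusted p = 0.0899).

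Kdr and Tek encode the receptors for VEGF and for angiopoietins. Kdr measured 5.09, 4.94 and 5.35 in K-rasG12D AOM, 4.92 and 4.10 in LSL AOM and 5.05, 5.04 and 6.23 in serrated tumors. Tek measured 3.57, 3.59 and 3.91 in K-rasG12D AOM, 3.73 and 3.23 in LSL AOM and 3.64, 3.72 and 5.73 in serrated tumors. In both genes serrated replicate 3 stood alone above the other 7 arrays. The differences from AOM tumors, 0.62 ± 0.31 (adjusted p = 0.262) and 0.78 ± 0.45 (adjusted p = 0.319), did not pass and were 0.22 and 0.09 without serrated replicate 3.

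Pecam1, for the junction protein CD31, measured 5.66, 6.10 and 6.04 in K-rasG12D AOM, 5.61 and 4.74 in LSL AOM and 5.10, 4.93 and 5.78 in serrated tumors. Vwf, for von Willebrand factor, measured 5.22, 5.33 and 5.43 in K-rasG12D AOM, 4.67 and 4.73 in LSL AOM and 5.25, 5.02 and 4.75 in serrated tumors. In both genes the LSL AOM arrays lay below the K-rasG12D AOM arrays. The differences of serrated from AOM tumors were -0.29 ± 0.27 and -0.01 ± 0.16 and did not pass. The junction genes Cdh5 (VE-cadherin, -0.50) and Esam (-0.44), the sialomucin gene Emcn (-0.23), the orphan receptor gene Tie1 (-0.07) and the VEGF receptor gene Flt1 (0.08) did not pass either. Of the 10 genes, 4 were highest on serrated replicate 3 (Kdr, Tek, Emcn and Flt1), or 40% beside 12.9% of all genes, and 5 were lowest on LSL AOM replicate 2 (Pecam1, Kdr, Tek, Tie1 and Flt1), or 50% beside 8.56%.

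The letters AGGAAG, which contain the core bound by ETS factors, many of which act in endothelium, were searched on both strands of the same 300-base windows. They stood in 4 of 6 endothelial windows (66.7%: Emcn, Tie1, Flt1 and Eng), in 15.4% of smooth muscle windows, in 42.9% of fibroblast windows and in 35.4% of all windows. Windows were matched for 6 of 10 endothelial and 5 of 12 fibroblast genes, so these shares rest on few genes.

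A list of 15 measured ligand genes held the VEGF, angiopoietin and PDGF families with Angptl4, Apln and the Notch ligands Dll4 and Jag1. Of these, 2 were lower in serrated than in AOM tumors and 0 higher, or 13.3% beside 9.38% of all genes (5.76% lower). The median difference was -0.14. Angpt2, for angiopoietin 2, a ligand of the Tek receptor, measured 5.41, 4.72 and 4.27 in K-rasG12D AOM, 4.84 and 4.78 in LSL AOM and 2.91, 2.6 and 2.99 in serrated tumors. All serrated arrays lay far below all AOM arrays. It fell by 1.97 ± 0.25 (adjusted p = 0.00247) and passed without any one array. The serrated signals lay below the 40th percentile of genes on each serrated array (3.41 to 3.74), so that the size of this fall may be understated. Pdgfd, for a ligand of the Pdgfrb receptor, fell by 0.95 ± 0.22 (adjusted p = 0.0320) but kept its call only without serrated replicate 3 among the arrays left out in turn. Without any other one it did not pass (adjusted p from 0.0605 to 0.142), nor with the AOM arrays pooled, and the count of ligands lower was 1 (Angpt2) in each of these cases but that of K-rasG12D AOM replicate 3, where Vegfc passed too.

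Of 25 other endothelial genes, 2 were lower in serrated than in AOM tumors and 0 higher. That is 8.0% beside 9.38% of all genes (5.76% lower), and the median difference was -0.13. Ecscr, for an endothelial surface regulator of chemotaxis, measured 7.37, 8.0 and 7.0 in K-rasG12D AOM, 7.09 and 7.18 in LSL AOM and 5.24, 4.48 and 5.01 in serrated tumors, a fall by 2.39 ± 0.26 (adjusted p = 0.00129). It passed without any one array. Sox17, a transcription factor of arterial endothelium that is also made by other cells, fell by 1.69 ± 0.43 (adjusted p = 0.0420) but did not pass without K-rasG12D AOM replicate 3, either LSL AOM array, or serrated replicate 1 or 2 (adjusted p from 0.0679 to 0.167), with arrays centred or with the AOM arrays pooled. The count was then 1, Ecscr.

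Taken 1 array at a time, the serrated tumors differed in which stromal genes were high. On serrated replicate 1, 12 of 16 smooth muscle genes lay above the AOM mean, with a median difference of 0.64, while 3 of 10 endothelial genes did, with a median of -0.29. On serrated replicate 3, 6 of 16 smooth muscle genes lay above it, with a median of -0.13, and 6 of 10 endothelial genes, with a median of 0.22. On serrated replicate 2 the numbers were 9 of 16 (median 0.19) and 3 of 10 (median -0.32). Fibroblast genes had medians of -0.53, -0.84 and -0.28 on replicates 1, 2 and 3. Of all genes, 52.0%, 53.4% and 47.4% lay above the AOM mean on these 3 arrays. Quantile normalization moved the medians of serrated replicate 1 most, to 1.06 over smooth muscle, -0.11 over endothelial and -0.19 over fibroblast genes (6 of 12 above the AOM mean, against 5 as deposited).

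**Figure D4:**
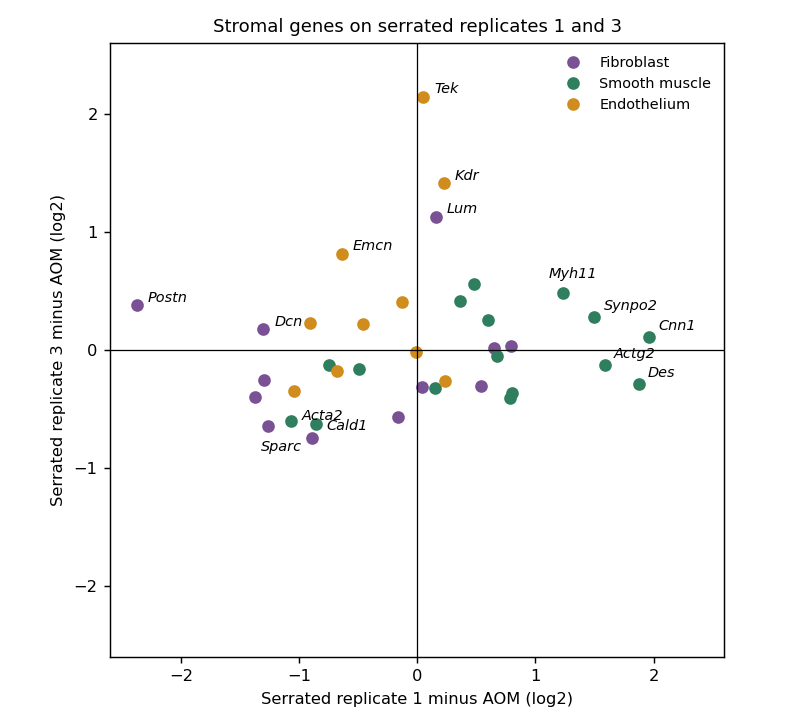
Log2 difference of serrated replicate 1 (horizontal axis) and of serrated replicate 3 (vertical axis) from the mean of the AOM group means, with 1 point per stromal gene coloured by cell type. Smooth muscle genes reach to the right (Cnn1 1.96, Des 1.87) while endothelial Tek (2.14) and Kdr (1.41) stand at the top, and Postn lies far to the left at -2.38 on replicate 1 and at 0.37 on replicate 3.

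The single genes named next were picked as the highest above the AOM mean on 1 of these arrays. They are part of the list values above and add no separate support. On serrated replicate 1, Cnn1 lay 1.96, Des 1.87 and Actg2 1.58 log2 units above the AOM mean, and on serrated replicate 3 the same genes lay at 0.10, -0.29 and -0.13. Tek lay 2.14 and Kdr 1.41 above it on serrated replicate 3, and 0.05 and 0.23 on serrated replicate 1. Highest on serrated replicate 1 were 6 of 16 smooth muscle genes (Myh11, Cnn1, Des, Actg2, Synpo2 and Synm), or 37.5% beside 27.9% of all genes. That array has a narrower spread of signals than the others, and after quantile normalization the counts were 10 of 16 (62.5%) beside 24.1% of all genes. After quantile normalization of all arrays the smooth muscle mean there was 6.26 and still the highest of the 8, and the endothelial mean of serrated replicate 3 was 5.27 and still the highest. Without serrated replicate 1 the smooth muscle median between serrated and AOM tumors was 0.10 in place of 0.41, and the difference of the list means -0.02 in place of 0.17.

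The median spread within groups was larger over stromal genes than over genes at large, but not for every gene. Placed among all genes, the spread ran from percentile 8.2 (Tie1) to 99.0 (Dcn). Of the 38, 28 had a mean level above that of the median gene, and genes of similar level were not compared. The median SD over the 38 genes was 0.28 in K-rasG12D AOM, 0.51 in LSL AOM and 0.45 in serrated tumors, beside 0.17, 0.16 and 0.32 over all genes. In 16 of the 38 the range of the 3 serrated arrays was wider than that of the 5 AOM arrays. The share of all genes with a wider serrated range was not counted, so this is not read as particular to stromal genes. In the LSL AOM group, replicate 1 was above replicate 2 in the mean of each of the 3 lists, and 10 of the 38 genes were highest on replicate 1 of the 8 arrays (26.3%, beside 11.1% of all genes).

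Between the AOM groups no stromal gene differed by limma's adjusted p, 0 of 38, as for all genes (0%). At an unadjusted p under 0.05 there were 4 of 38, beside 8.36% of all genes: Pecam1, Flt1 and Vwf higher and Fbln1 lower in K-rasG12D AOM tumors. Vwf had a difference of 0.63 ± 0.19 (adjusted p = 0.392). The median of K-rasG12D AOM minus LSL AOM tumors was 0.26 over fibroblast, -0.11 over smooth muscle and 0.35 over endothelial genes. The arrays of these groups did not overlap in 9 of 38 genes (23.7%, beside 32.1% of all genes, 16.4% higher and 15.7% lower), 5 of them endothelial: Pecam1, Kdr, Emcn, Flt1 and Vwf, all higher in K-rasG12D AOM tumors. The LSL AOM group has only 2 arrays, and the fibroblast median was -0.13 without LSL AOM replicate 2.

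Markers of cells that lie near the stroma were read beside these results. The mean of 14 epithelial genes was 8.92 to 8.97 on the K-rasG12D AOM arrays, 9.01 and 9.19 on the LSL AOM arrays and 9.49 to 9.58 on the serrated arrays. Of the 14, 10 had a difference of serrated from AOM tumors above 0 and 4 below, with a median of 0.27. By limma 2 of 14 were higher (14.3%, beside 9.38% of all genes), Cdx2 (2.56 ± 0.27, adjusted p = 0.00130) and Krt20 (2.53 ± 0.49, adjusted p = 0.0162). The latter did not pass without LSL AOM replicate 1 or serrated replicate 2. After quantile normalization 5 of the 14 were higher (Lgals4, Spint1 and Vil1 added), and 7 with array weights (Krt8 and Krt18 too). The mean of 12 leukocyte genes was 5.0 to 5.62, 5.15 to 5.35 and 4.50 to 5.24 in the same order. By limma 2 of the 12 were lower (16.7%, beside 9.38% of all genes), the macrophage genes Cd68 and Csf1r. Each lost its call without any one of 6 of the 8 arrays. Of the 12 leukocyte genes, 9 had a difference of serrated from AOM tumors below 0 and 3 above. Their median was -0.62, close to the -0.64 of the fibroblast genes. Serrated replicate 3 had the highest leukocyte and fibroblast means of the 3 serrated arrays. Whether the share of epithelium in a sample had a part in the levels of Sparc, Cald1 or the fibroblast list was not tested.

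Of 10 pericyte genes, 1 was lower in serrated tumors, Mcam (-1.13 ± 0.26, adjusted p = 0.0289), which kept its call only without serrated replicate 3 among the arrays left out in turn. That is 10% of the pericyte genes, beside 9.38% of all genes. Of the 10, 6 had a difference above 0 and 4 below, with a median of 0.02. Pericyte means ran from 4.28 to 4.61 in K-rasG12D AOM, were 4.25 and 4.13 in LSL AOM and ran from 4.14 to 4.40 in serrated tumors. Lymphatic endothelial genes (6 measured) passed between serrated and AOM tumors in 0 cases by limma, beside 9.38% of all genes. At an unadjusted p under 0.05 there was 1 (16.7%), beside 24.7% of all genes. The means of this list were 4.73 to 5.17 in K-rasG12D AOM, 3.85 and 4.10 in LSL AOM and 3.82 to 4.22 in serrated tumors. The gene Pdpn, 1 of the 6, was lower against K-rasG12D AOM tumors alone (-1.09 ± 0.24, adjusted p = 0.0310). Interstitial cells of Cajal, the pacemakers of the gut muscle layer, had 6 genes measured, with means of 4.99 to 5.18, 4.71 to 4.95 and 4.54 to 5.06. Between serrated and AOM tumors 0 of the 6 passed by limma, beside 9.38% of all genes, and 3 (50%) had an unadjusted p under 0.05, beside 24.7%. Of these 6, Gja1 was lower against K-rasG12D AOM tumors alone (-1.66 ± 0.38, adjusted p = 0.0376). Serrated replicate 1, the highest array for smooth muscle, was the lowest for this list.

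Enteric neurons and glia lie between the layers of the outer muscle. Of 16 such genes 1 was higher in serrated tumors, Erbb3 (1.16 ± 0.22, adjusted p = 0.0138), which is also made by epithelium and did not pass without LSL AOM replicate 2 or serrated replicate 2. That is 6.25% of the list, beside 9.38% of all genes. The mean of the list was 3.11 to 3.32 in K-rasG12D AOM, 2.97 and 3.12 in LSL AOM and 3.04 to 3.46 in serrated tumors. Of 7 skeletal muscle genes 0 passed between serrated and AOM tumors by limma, beside 9.38% of all genes. At an unadjusted p under 0.05 there was 1 (14.3%), beside 24.7% of all genes. The means of these 7 genes were 3.15 to 3.35, 3.47 to 3.51 and 3.17 to 3.66 in the same order. Against LSL AOM tumors alone 1 of the 7, Acta1, was lower (-0.82 ± 0.16, adjusted p = 0.0244). Both lists were highest on serrated replicate 1 as deposited, but after quantile normalization the highest arrays were K-rasG12D AOM replicate 3 (3.28, against 3.24 on serrated replicate 1) and LSL AOM replicate 1 (3.59, against 3.57). Of 7 mesothelial genes Msln was lower in serrated tumors, a call lost without any one of 6 arrays, after quantile normalization or centring, or with the AOM arrays pooled. The other 6 mesothelial genes had differences above 0, and the median of that list was 0.17. Among them Upk1b passed as higher without serrated replicate 1, without the dimmest 40% of genes and with array weights. Of 7 adipocyte genes Cidec was higher. For each of these 2 lists 1 gene of 7 is 14.3%, beside 9.38% of all genes. The means of these 2 lists were 4.52 to 4.96 and 3.45 to 3.86 in the serrated group and 4.34 to 4.78 and 3.05 to 3.22 in the AOM groups. The part of outer muscle or of other tissue in the smooth muscle levels of serrated replicate 1 was not tested.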

How the data were processed

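RNA from 8 mouse colonic tumors was hybridised to 1 Affymetrix array each. The deposited values are log2 signals made by the authors with GCOS and RMA (robust multi-array average), per the submitters' processing notes. The sources used here give neither versions, settings nor chip annotation. Of 35557 probe sets, 21789 were annotated with exactly 1 gene symbol, and the brightest probe set on average over 8 arrays was taken for each of 19938 genes. No further normalization, filter or transformation was applied.

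One limma fit (version 3.58.1, R 4.3.3; trend and robust off) of the 3 group means to all 8 arrays gave 4 contrasts, with Benjamini-Hochberg adjustment over all genes of each and 0.05 as the threshold. The fit uses 1 spread per gene for the 3 groups, so errors for the more variable serrated group are possibly too small. It was tested on simulated data. The labels do not say whether samples of a group were separate animals, so p-values measure only the spread between these samples, which may be technical. The number of arrays limits the precision.

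The stromal genes, the other gene lists and the tests were chosen with earlier results of these data known. Any stromal gene could be named. Values on every array were given for those that passed and, per list, the 4 brightest and the 2 with the largest difference between serrated and AOM tumors. Of the other lists up to 4 genes of smallest adjusted p were named. Further genes were named, or shown on every array, after their values were seen, among them Col1a2 and Col5a2. Promoter windows came from RefSeq (GRCm38.p6).

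Alternatives were the mean of all probe sets of a gene, no genes among the dimmest 40%, quantile normalization, median centring, trend and robust, array weights, only the arrays compared, AOM arrays pooled, other list scores and each array left out.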

Additional observations from a re-analysis of the deposited data

How the results depend on the processing

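With 2 or 3 arrays per group, single arrays decided most calls. Leaving out 1 array gave 0 to 11 stromal genes for serrated against AOM and 0 to 11 against K-rasG12D AOM tumors, 0 to 5 against LSL AOM tumors, and 0 between the AOM groups. The count against AOM tumors was 4 without the dimmest 40% of genes (Pdgfra and Pdgfrb added), 1 with arrays centred and 16 with array weights. Against K-rasG12D AOM tumors it was 1 centred and 17 with array weights, and against LSL AOM tumors 9 with array weights. With array weights 28.9%, 28.5% and 18.4% of all genes passed in these 3 comparisons. The weights (0.24 and 0.38 for serrated replicates 1 and 3, 3.15 for replicate 2) were estimated gene by gene, chosen after seeing the data since the default estimate did not converge. The fibroblast median against K-rasG12D AOM tumors was -1.03 without the dimmest 40%, and the difference of fibroblast list scores against LSL AOM tumors -0.80 with medians over members. Leaving out 1 array moved medians against LSL AOM tumors between -1.13 and -0.27 for fibroblast and between -0.014 and 0.62 for smooth muscle genes, and that of fibroblast genes between the AOM groups between -0.13 and 0.35. The other 174 medians and 155 differences of list means, over all alternatives, moved by less than the SD between arrays. That SD, of the list mean within groups, is a wide yardstick that a change of sign can lie within, so this does not show stability. With 1 array left out, the difference of list means between serrated and AOM tumors ran from -0.02 to 0.32 for smooth muscle. It ran from -0.38 to 0.05 for endothelium and from -0.71 to -0.33 for fibroblast genes. Genes near 0 between serrated and AOM tumors changed sign: with array weights Lum (-0.32), Eln (0.036), Tagln (-0.29), Flt1 (-0.0093) and Vwf (0.0082), after quantile normalization Eln (0.087), Tie1 (0.10) and Vwf (0.20), and centred Vwf (0.052). With 1 array left out their ranges were Lum -0.20 to 0.66, Thy1 -0.19 to 0.24, Mfap5 -0.031 to 0.42, Eln -0.17 to 0.028, Tagln -0.35 to 0.33, Actg2 -0.087 to 0.77, Synm -0.0028 to 0.59, Emcn -0.75 to 0.085, Flt1 -0.085 to 0.18 and Vwf -0.13 to 0.12. The cause was not tested. No paired analysis was possible because the labels give the groups no shared replicate numbers.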
